A study of Homo sapiens with 4 samples.

Results

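The 88 protein-coding genes of the nucleus that encode subunits of the respiratory chain were examined for peaks of the metal-responsive transcription factor MTF-1 in MDA-MB-231 cells, with and without prolonged cadmium exposure. They were chosen by gene symbol from GENCODE release 44 on hg38 (symbols starting NDUFA, NDUFB, NDUFC, NDUFS or NDUFV and a digit, SDHA to SDHD, UQCR, COX4 to COX8, and ATP5F, ATP5M or ATP5P), out of 19970 protein-coding genes on chromosomes 1 to 22 and X. By complex, 39 belonged to complex I, 4 to complex II, 9 to complex III, 17 to complex IV and 19 to complex V. The rule uses symbols and no measured value. Symbols were taken as they stand, so NDUFA4 and NDUFA4L2 were counted with complex I, although NDUFA4 protein is known as a subunit of complex IV. NDUFC2-KCTD14 and ATP5MF-PTCD1 are read-through genes that use the starts of NDUFC2 and ATP5MF.

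MDA-MB-231 is an established line of human breast cancer cells. In CUT&RUN, an antibody, here anti-MTF1, directs a nuclease to its target protein on chromatin, and the DNA that is cut free is sequenced. The 4 libraries came from untreated control cells (2 libraries) and from cells passaged in cadmium sulfate, begun at 5 µM and then held at 10 µM for at least 10 passages (2 libraries). The 2 libraries of each condition were merged by the authors before peaks were called, so every value below is the start, end or width of a peak in 1 of 2 lists, with no replicate spread, no height and no test, and the depth behind each peak is unknown. The control list had 69299 peaks (median 1399 bp, 130.4 Mb in all) and the cadmium list 60130 (median 999 bp, 90.9 Mb in all). The methods name no control library for peak calling.

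The respiratory chain sits in the inner mitochondrial membrane. Complex I (NADH dehydrogenase) and complex II (succinate dehydrogenase) pass electrons to ubiquinone, complex III passes them on to cytochrome c, complex IV reduces oxygen, and complex V makes ATP from the proton gradient. Most subunits are encoded in the nucleus and many of their promoters are known to be read by the nuclear respiratory factors NRF-1 and NRF-2 (GABP), YY1 and the estrogen-related receptors. MTF-1 is a zinc finger protein that is best known for switching on metallothionein genes through metal response elements when zinc or cadmium rises.

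A start-site peak was a peak with any base within 1 kb of any annotated transcript start of the gene. Nearly all respiratory chain genes had such a peak in both conditions. In control, 82 of the 88 genes (93.2%) had a start-site peak, beside 73.4% of all protein-coding genes. In cadmium, 81 of 88 (92%) had a peak, beside 71.7% of all protein-coding genes. The same 81 genes had a peak in both lists, where the share over all protein-coding genes was 70.2%. Only COX7A1 had a peak in control alone (3.21% of all protein-coding genes), none had a peak in cadmium alone (1.5% of all), and 6 had a peak in neither list (25.1% of all). The 6 were UQCRHL, COX4I2, COX6A2, COX7B2, COX8C and ATP5MGL.

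**Figure D1:**
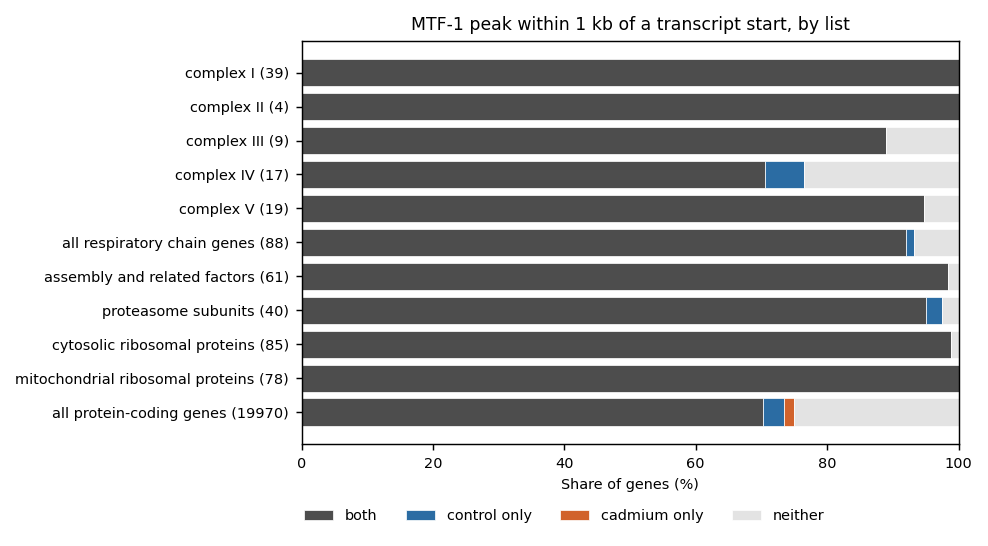
Share of genes (x axis, %) with an MTF-1 peak within 1 kb of a transcript start in both lists, in control alone, in cadmium alone or in neither, for each complex, for all 88 respiratory chain genes, for comparison families and for all 19970 protein-coding genes (number of genes in parentheses). All 39 genes of complex I and all 4 of complex II had a peak in both lists, and complex IV had 12 of 17.

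The peaks lay over the starts themselves. The canonical start, which is the start of the transcript that Ensembl marks as canonical, was under a peak in 82 members in control and in 81 in cadmium, that is, in every member counted above, beside 66.5% and 64.5% of all protein-coding genes. The nearest peaks of the members without a start-site peak began beyond the 1 kb limit, the closest at 1253 bp (UQCRHL, cadmium) and 1668 bp (COX4I2, control). For comparison, a peak in both lists was found at 84 of 85 cytosolic ribosomal protein genes, 78 of 78 mitochondrial ribosomal protein genes and 38 of 40 proteasome subunit genes. No difference between these families was tested.

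The genes without a peak were mostly isoforms made in particular tissues. Complex IV has subunits that exist as a widely expressed form and as a form restricted to lung, muscle or testis. All 6 of the widely expressed forms listed here (COX4I1, COX6A1, COX6B1, COX7A2, COX7B and COX8A) had a peak in both lists. Of their 6 restricted counterparts, COX6B2 of testis had a peak in both lists (3399 bp in control, 4599 bp in cadmium), COX7A1 of heart and skeletal muscle had a peak in control alone, and COX4I2 (lung), COX6A2 (heart and skeletal muscle), COX7B2 and COX8C (testis) had none. The other 2 genes without a peak, UQCRHL and ATP5MGL, are intronless copies of UQCRH and ATP5MG, whose own start-site peaks were 3599 bp and 2999 bp wide in control.

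The promoters of the isoform pairs also differed in sequence. CpG content is shown for 3 pairs because promoters rich in CpG are as a rule active in many tissues. Each sequence below is a stretch upstream of the start in the gene's own direction from the RefSeq promoter table (GRCh38.p14), with every CpG in capitals. COX6A1 (plus strand, chr12:120437963-120438089) had peaks of 999 and 599 bp in control and 2599 bp in cadmium, and COX6A2 (minus strand, chr16:31428361-31428510) had none within 14241 bp in either list. COX7B (plus strand, chrX:77899318-77899439) had peaks of 1599 and 799 bp in control and cadmium, and COX7B2 (minus strand, chr4:46909246-46909395) had none. COX8A (plus strand, chr11:63974470-63974619) had peaks of 1799 and 2199 bp, and COX8C (plus strand, chr14:93347032-93347181) had none.
COX6A1: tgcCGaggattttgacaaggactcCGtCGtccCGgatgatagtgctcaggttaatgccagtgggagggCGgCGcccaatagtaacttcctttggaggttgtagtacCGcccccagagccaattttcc
COX6A2: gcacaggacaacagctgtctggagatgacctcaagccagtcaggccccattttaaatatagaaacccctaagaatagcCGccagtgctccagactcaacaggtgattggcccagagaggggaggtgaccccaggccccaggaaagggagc
COX7B: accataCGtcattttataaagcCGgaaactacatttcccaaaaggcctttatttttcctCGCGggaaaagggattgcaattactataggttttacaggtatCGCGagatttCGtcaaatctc
COX7B2: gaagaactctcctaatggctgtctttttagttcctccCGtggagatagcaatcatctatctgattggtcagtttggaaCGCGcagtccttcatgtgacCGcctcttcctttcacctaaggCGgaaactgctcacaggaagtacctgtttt
COX8A: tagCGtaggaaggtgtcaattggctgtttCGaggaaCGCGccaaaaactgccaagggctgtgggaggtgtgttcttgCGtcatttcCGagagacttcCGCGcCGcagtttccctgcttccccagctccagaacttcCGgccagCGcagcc
COX8C: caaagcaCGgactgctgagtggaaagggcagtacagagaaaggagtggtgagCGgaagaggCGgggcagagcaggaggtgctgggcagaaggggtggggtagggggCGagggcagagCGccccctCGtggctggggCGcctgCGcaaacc
The stretches of COX6A1, COX7B and COX8A held 7, 7 and 11 CpGs, and those of COX6A2, COX7B2 and COX8C held 1, 5 and 8. Lengths differed, so the comparison was made over the full promoter windows of 300 bases (250 before the start and 50 after). There the ratio of observed to expected CpG was 0.868 for COX6A1 and 0.247 for COX6A2, 0.979 for COX7B and 0.52 for COX7B2, and 0.793 for COX8A and 0.383 for COX8C. In each of these 3 pairs the gene with a peak had the higher ratio. GC content did not follow this order in 2 of the 3 pairs, with 44% in COX7B and 45.3% in COX7B2, and 55% in COX8A and 64.3% in COX8C. In COX6B1 and COX6B2, which both had a peak in both lists, the ratio was 0.664 in the widely expressed form and 0.799 in the testis form.

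The count was then widened to the members that could be matched, although those without a peak were the same 3 genes as in the pairs. Promoters were found in the RefSeq table for 69 of 88 members, 66 of them with a peak in both lists. A CpG ratio above 0.6 was found in 64 of these 66 promoters and in 0 of the 3 without a peak (COX6A2, COX7B2 and COX8C). Over all promoters in the table the share was 68.9% of 15315, and it was 84.3% of the 11052 whose gene had a peak in both lists. The part of CpG content in the presence of a peak was not tested.

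COX7A1 was the member that lost its start-site peak. In control a peak of 3399 bp lay at chr19:36151201-36154599 over its start, and in cadmium the nearest peak was 10226 bp away. Unique control peaks also lay within 2 other restricted isoforms, outside the 1 kb limit. Such peaks were common, at 11 of 36 control peaks within members beyond 1 kb of any start (30.6%). Over all protein-coding genes the share was 33.3%. A control peak of 2199 bp within COX4I2 (chr20:31639601-31641799), 1668 bp from a start, and a control peak of 399 bp within COX7B2 (chr4:46878601-46878999), 1841 bp from a start, had no counterpart in cadmium. Whether these losses exceed the spread between libraries cannot be told from merged lists.

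By an overlap of at least 1 base, nearly all start-site peaks of the members were shared between the conditions. The members had 94 distinct start-site peaks in control, of which 2 (that of COX7A1, and a peak of 399 bp at an internal start of NDUFA12) shared no base with a cadmium peak. Over all protein-coding genes 10.6% of control start-site peaks were unique. In cadmium the members had 92 distinct start-site peaks, and 1 was unique, a peak of 799 bp (chr3:48605401-48606199) at a start within UQCRC1, a core protein of complex III. Over all genes 5.12% of cadmium start-site peaks were unique. Counting a start-site peak as shared only if 50% or more of its bases were overlapped gave 17 unique in control and 3 in cadmium. No share over all protein-coding genes was computed at this 50% setting, so these counts have no background. Over all peaks of the lists the median width was 1399 bp in control and 999 bp in cadmium. NDUFA12 and UQCRC1 each also had a shared peak over the canonical start.

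Peak width, in contrast to presence, differed between the lists at most members. For each gene the widest start-site peak of each list was compared, with both ends set by the 200 bp bins of the peak caller. Among the 81 genes with a peak in both lists, the cadmium peak was narrower in 51 (63%, beside 62.2% of all 14014 protein-coding genes with a peak in both), equal in 10 (12.3%, beside 12.2%) and wider in 20 (24.7%, beside 25.5%). The median log2 ratio of cadmium to control width was -0.28, a ratio of 0.823, and over all protein-coding genes it was -0.22, a ratio of 0.857. The members therefore followed the shift of the whole list closely in their counts. The cadmium peak had at most 1/2 of the control width in 15 members (18.5%, beside 14.7% of all) and at least 2 times the control width in 2 members (2.47%, beside 2.89%). The 15 include both ATP5MF and ATP5MF-PTCD1, which share 1 peak. They also include NDUFS7, whose widest control and cadmium peaks lay at different starts. Leaving out the read-through genes and intronless copies gave a median log2 ratio of -0.26.

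In control the width at the members ran from 799 to 46399 bp with a median of 2099 bp and quartiles of 1599 and 3599 bp. In cadmium it ran from 599 to 42599 bp with a median of 1799 bp and quartiles of 1399 and 2799 bp. All protein-coding genes had medians of 2799 bp and 2199 bp, so the members' median lay below that of all genes in each list. Of the 81 pairs of peaks, 8 had identical ends in both lists (at NDUFA10, NDUFA4, NDUFB4, NDUFB5, SDHC, COX4I1, COX7C and ATP5MC3) and another 33 kept an end in common. A difference of 1 bin was seen in 11. No share over all protein-coding genes was computed for these counts of ends and bins, so they do not set the members apart.

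**Figure D2:**
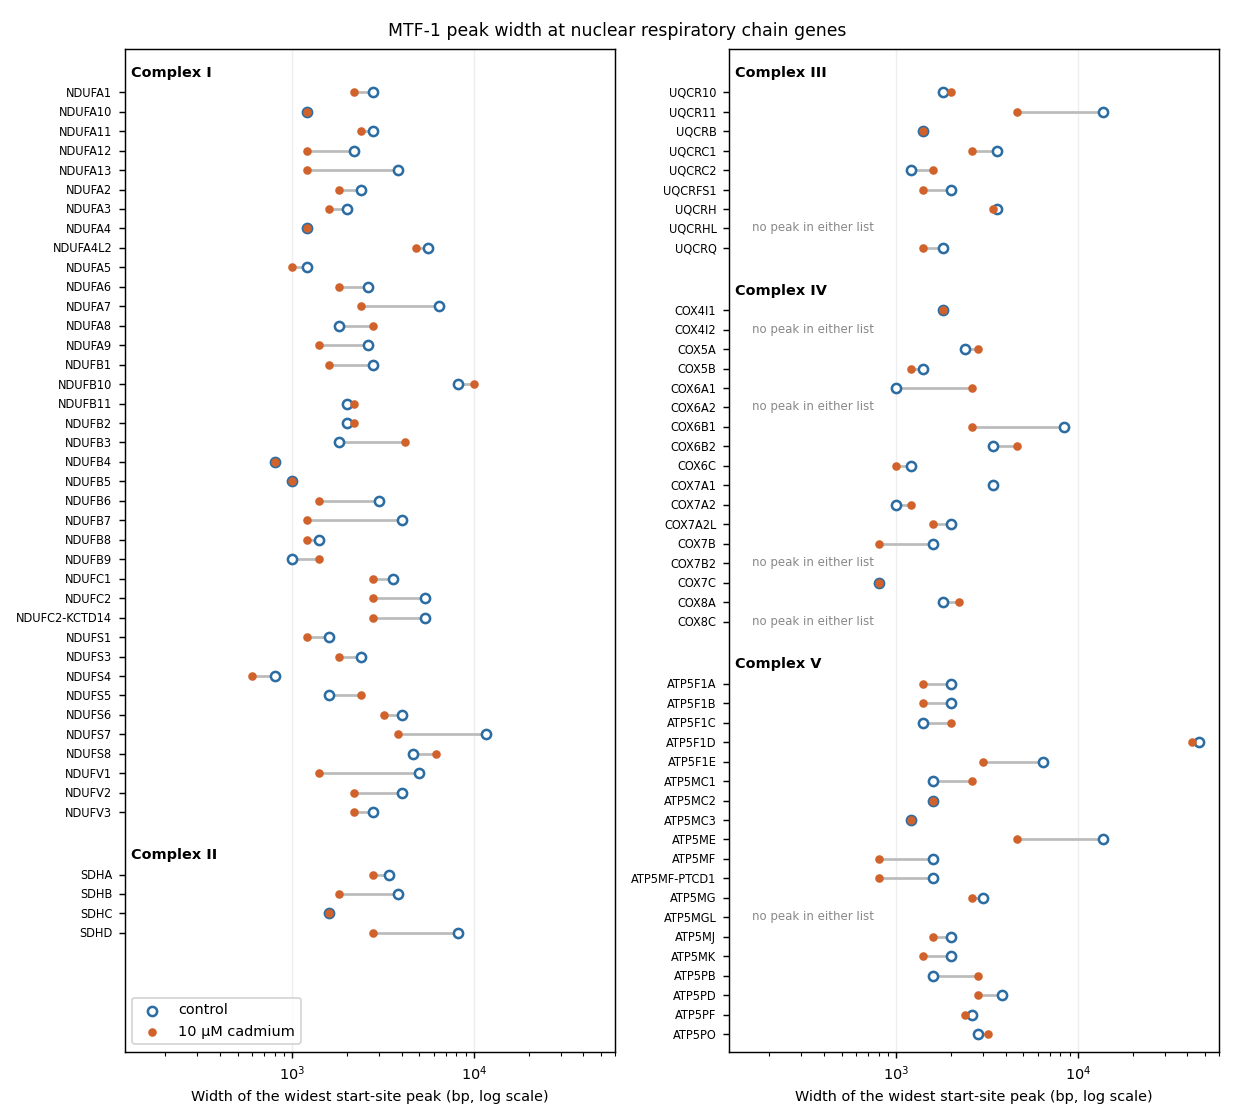
Width of the widest MTF-1 start-site peak (x axis, bp, log scale) at 87 of the 88 genes, by complex, in control (open blue circles) and in 10 µM cadmium (filled orange circles), joined by a grey line. The cadmium point lies to the left at 51 genes, to the right at 19 and on the control point at 10, COX7A1 has a control point alone, and 6 genes have none.

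Complex I had the most genes and no gap. All 39 members had a peak in both lists, narrower in cadmium in 26, equal in 4 and wider in 9, with a median log2 ratio of -0.35 and a median width of 2599 bp in control and 1799 bp in cadmium. The largest narrowing was at NDUFV1, the flavoprotein that takes electrons from NADH, with 4999 bp in control (chr11:67604401-67609399) and 1399 bp in cadmium (chr11:67606201-67607599), a log2 ratio of -1.84. A second control peak of 4199 bp at a downstream start of NDUFV1 was met in cadmium by a peak that lay beyond the 1 kb limit. NDUFB7 and NDUFA13, accessory subunits, followed with 3999 bp against 1199 bp and 3799 bp against 1199 bp.

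The widest control peak in complex I was at NDUFS7, which carries an iron-sulfur cluster close to the ubiquinone site. Its peak of 11599 bp lay at a downstream start and was met by 2 cadmium peaks, neither within 1 kb of a start of NDUFS7. This control peak also lay over the start of GAMT, so its width is not that of NDUFS7 alone. Over the canonical start of NDUFS7 the peak was 5599 bp in control and 3799 bp in cadmium. NDUFS7 and NDUFS8 in control and NDUFS3 and NDUFS8 in cadmium were the members whose widest peak was not the peak over the canonical start.

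Widening in complex I was largest at NDUFB3, an accessory subunit of the membrane arm, from 1799 bp in control (chr2:201070601-201072399) to 4199 bp in cadmium (chr2:201069201-201073399), a log2 ratio of 1.22. This cadmium peak was met by 2 control peaks, and the NDUFB3 peak of each list also lay over the start of HYCC2. NDUFA8 (1799 to 2799 bp, log2 ratio 0.64) and NDUFS5 (1599 to 2399 bp) widened less. NDUFB10, also of the membrane arm, had 8199 bp in control and 9999 bp in cadmium. NDUFS1, a core subunit which holds several iron-sulfur clusters, had 1599 bp in control and 1199 bp in cadmium. NDUFA9, an accessory subunit, had 2599 and 1399 bp. The narrowest control peaks, 799 bp, were at NDUFB4 (799 bp in cadmium) and NDUFS4 (599 bp in cadmium), an accessory subunit known for mutations in Leigh syndrome. NDUFC2 and NDUFC2-KCTD14 shared the same peak, 5399 bp in control and 2799 bp in cadmium.

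Complex II, the smallest, had 3 of 4 peaks narrower in cadmium and 1 equal, with a median log2 ratio of -0.68. SDHD, a membrane anchor, had a control peak of 8199 bp (chr11:112081401-112089599) and a cadmium peak of 2799 bp (chr11:112085201-112087999), a log2 ratio of -1.55. The control peak of SDHD was met by 2 cadmium peaks, which covered 39% of its bases. SDHB, the iron-sulfur subunit, had 3799 bp in control and 1799 bp in cadmium, a log2 ratio of -1.08. SDHA, the flavoprotein, had 3399 and 2799 bp, and SDHC, the other anchor, had 1599 bp in both. With 4 genes the median rests on the middle values of SDHA and SDHB.

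In complex III, 8 of 9 genes had a peak in both lists, narrower in 5, equal in 1 and wider in 2, with a median log2 ratio of -0.22. UQCR11, a small accessory subunit, had the widest control peak, 13799 bp (chr19:1601601-1615399), and the largest narrowing, to 4599 bp (chr19:1602601-1607199), a log2 ratio of -1.59. The control peak of UQCR11 was met by 3 cadmium peaks, which covered 40.6% of its bases. UQCRFS1, the Rieske iron-sulfur protein, had 1999 and 1399 bp, and UQCRC1 had 3599 and 2599 bp. UQCRC2, the other core protein, had the narrowest control peak, 1199 bp, and the largest widening, to 1599 bp, a log2 ratio of 0.42. UQCRB had 1399 bp in both lists.

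In complex IV narrowing and widening were equal in number by gene symbol. Of its 12 genes with a peak in both lists, 5 were narrower, 2 equal and 5 wider, with a median log2 ratio of 0.00. With NDUFA4 and NDUFA4L2 counted here, 6 of 14 were narrower and the tie ended. COX6B1, which faces the intermembrane space, narrowed from 8399 bp (chr19:35641601-35649999) to 2599 bp (chr19:35646601-35649199), a log2 ratio of -1.69. Its control peak also lay over the start of ETV2 and was met by 2 cadmium peaks, which covered 69% of its bases. COX6A1 had 2 control peaks, the wider of 999 bp (chr12:120437601-120438599), that were covered in cadmium by 1 peak of 2599 bp (chr12:120437601-120440199), a log2 ratio of 1.38. COX4I1 had 1799 bp in both lists, COX5A had 2399 and 2799 bp, COX5B 1399 and 1199 bp, and COX6C 1199 and 999 bp. COX7C had the narrowest control peak, 799 bp, and the same width in cadmium. COX7A2, the counterpart of COX7A1, had 999 and 1199 bp.

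In complex V, 18 of 19 genes had a peak in both lists, narrower in 12, equal in 2 and wider in 4. The median log2 ratio was -0.26, although the median width was 1999 bp in control and 2199 bp in cadmium, since the genes in the middle of the order were not the same. Narrowing was largest at ATP5ME, subunit e of the membrane part, from 13799 bp (chr4:671401-685199) to 4599 bp (chr4:673601-678199), a log2 ratio of -1.59. This control peak too was met by 3 cadmium peaks, which covered 69.5% of its bases. Widening was largest at ATP5PB, subunit b of the outer stalk, from 1599 to 2799 bp, a log2 ratio of 0.81.

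The subunits of the catalytic head and the central stalk gave values in both directions. ATP5F1A and ATP5F1B (alpha and beta) each had 1999 bp in control and 1399 bp in cadmium, and ATP5F1C (gamma, in the central stalk) had 1399 and 1999 bp. The 3 genes for the c ring, which encode the same mature protein, had 1599 and 2599 bp (ATP5MC1), 1599 and 1599 bp (ATP5MC2) and 1199 and 1199 bp (ATP5MC3). ATP5PO, which joins the outer stalk to the catalytic head, had 2799 and 3199 bp. ATP5MF and ATP5MF-PTCD1 shared a peak of 1599 bp in control and 799 bp in cadmium. ATP5F1D (delta) stood far from the rest, with 46399 bp in control and 42599 bp in cadmium, and its peak also lay over the starts of CBARP, CIRBP, FAM174C and MIDN, so its width is not that of a promoter of ATP5F1D alone.

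**Figure D3:**
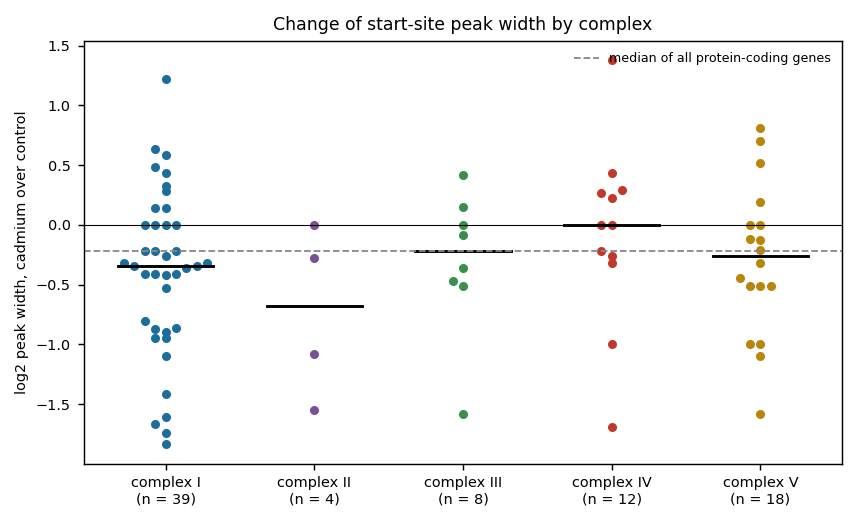
Log2 ratio of cadmium to control width of the widest start-site peak (y axis) for each of the 81 genes with a peak in both lists, by complex, with the median of each complex (black bar) and of all protein-coding genes (dashed line). The medians were -0.35, -0.68, -0.22, 0.00 and -0.26 for complexes I to V, beside -0.22 for all genes, and single genes ran from -1.84 to 1.38.

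The share of narrower peaks was higher where the control peak was wider. Of 17 members with a control width of 799 to 1399 bp, 29.4% were narrower in cadmium, with a median log2 ratio of 0.00. Of 25 with 1599 to 2199 bp, 52% were narrower, and of 39 with 2399 bp or more, 84.6% were narrower, with a median log2 ratio of -0.44. All protein-coding genes showed the same order in the same width classes, with 32.3%, 49.6% and 73.9% narrower. In the widest class the cadmium peak had at most 1/2 of the control width in 30.8% of the members and 19.5% of all genes. Since genes were classed by the control width itself, the order is only a description of the lists. Whether wide peaks respond to cadmium was not tested.

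The ends of the peaks were then measured from the canonical start in the direction of transcription, over the peak that covers it. The downstream end was closer to the start in cadmium at 43 of 81 members, at the same place at 20 and farther at 18, with a median of 967 bp in control and 876 bp in cadmium. The upstream end was closer at 34, at the same place at 30 and farther at 17, with medians of 1108 bp and 913 bp. Gene by gene, the median change from control to cadmium was -200 bp downstream and 0 bp upstream, the same as over all protein-coding genes. Both ends were closer at 18 members, the upstream end alone at 16, the downstream end alone at 25 and neither at 22. Over all protein-coding genes the downstream end was closer at 50.3% and the upstream end at 47.2%, with downstream medians of 1396 and 1165 bp and upstream medians of 1188 and 982 bp.

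**Figure D4:**
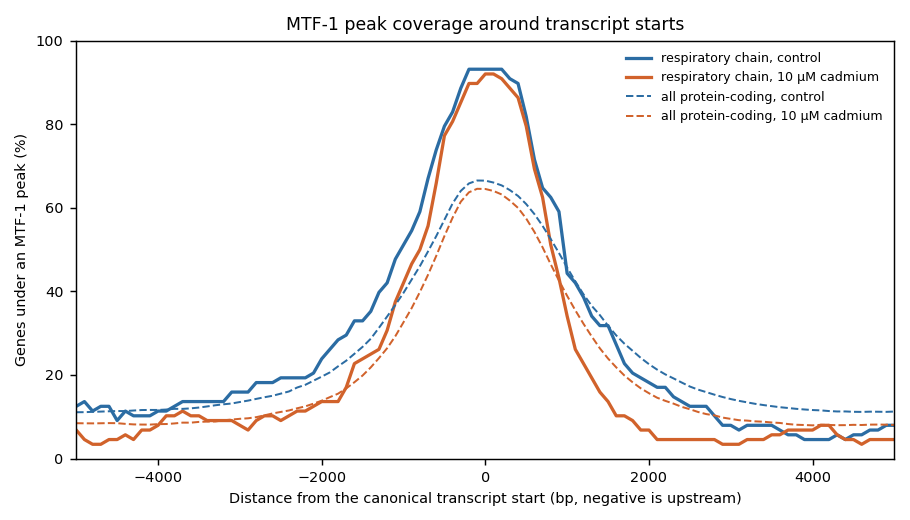
Share of genes under an MTF-1 peak (y axis, %) by distance from the canonical transcript start (x axis, bp, negative is upstream), for the 88 respiratory chain genes (solid) and all protein-coding genes (dashed), in control (blue) and 10 µM cadmium (orange). At 2000 bp downstream the shares were 18.2% and 6.82% for the respiratory chain genes and 22.6% and 15.6% for all genes.

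The profile of coverage showed where the lists parted. At 1000 bp downstream, 44.3% of the members were under a control peak and 34.1% under a cadmium peak, beside 45.7% and 38.9% of all protein-coding genes. At 2000 bp downstream the members had 18.2% in control and 6.82% in cadmium. At 1000 bp upstream the shares were 51.1% and 42%, beside 39.7% and 32.6% of all genes, and at 2000 bp upstream they were 23.9% and 13.6%, beside 19.6% and 13.8%. At each of these distances the members' share was lower in cadmium, and upstream in control it lay above that of all genes.

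Many of the members share a start region with a neighbour. A coding gene that starts within 1 kb in the opposite direction, head to head, was found for 25 of 88 members (28.4%), beside 9.49% of all protein-coding genes, and a long noncoding RNA in that position for 10 more (11.4%, beside 9.39%). All 35 of these members had a peak in both lists, as did 92% of all 88 members. The share among all protein-coding genes with such a neighbour was not computed. ATP5PF (subunit F6) starts 68 bp from GABPA, which encodes the DNA-binding subunit of NRF-2. SDHD starts 117 bp from TIMM8B, an import chaperone of the intermembrane space, and NDUFB5 starts 156 bp from MRPL47 of the mitochondrial ribosome. COX4I1 starts 151 bp from EMC8, and SDHA 167 bp from CCDC127. The widest peak also covered the canonical start of another coding gene at 41 of 82 members in control (50%) and 39 of 81 in cadmium (48.1%), beside 24.1% and 24.4% of all genes with a peak. A peak over such a region cannot be assigned to either gene. The median log2 ratio of width was -0.35 with a coding partner, -0.36 with a noncoding partner and -0.26 with neither.

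Promoter sequences were searched for 11 short recognition strings, on both strands, in the windows of 300 bases of the 69 matched members. The metal response element core was taken as TGCACNC or TGCGCNC, where N is any base. At least 1 such core was found in 36 promoters (52.2%), beside 36% of all 15315 promoters and 40.3% of the 11052 promoters of genes with a peak in both lists. The 36 were all among the 66 members with a peak in both lists. The 3 without a peak, again COX6A2, COX7B2 and COX8C, had none, but 3 genes are too few to show a difference. Members with a core had median widths of 2799 bp in control and 2199 bp in cadmium (median log2 ratio -0.32), and the 30 without had 1899 and 1699 bp (-0.31), so the ratio was nearly the same.

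The core overlaps by its letters with the NRF-1 string, GCGCANGCG. Of 59 cores in the members' promoters, 16 shared bases with an NRF-1 string, and 55 lay before the start. The median position of all 59 was -86. The cores of 5 members are shown in capitals, in stretches upstream of the start in the gene's direction (RefSeq, GRCh38.p14), because they come from members that widened (NDUFA8) or narrowed (NDUFA12, SDHA, SDHB and UQCR11) in cadmium. They lie at chr9:122159780-122159907 (NDUFA8, minus strand), chr12:95003749-95003847 (NDUFA12, minus strand), chr5:218170-218297 (SDHA, plus strand), chr1:17054133-17054232 (SDHB, minus strand) and chr19:1605474-1605612 (UQCR11, minus strand).
NDUFA8: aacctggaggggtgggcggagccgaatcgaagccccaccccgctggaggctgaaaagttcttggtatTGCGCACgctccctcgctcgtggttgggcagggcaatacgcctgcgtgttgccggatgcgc
NDUFA12: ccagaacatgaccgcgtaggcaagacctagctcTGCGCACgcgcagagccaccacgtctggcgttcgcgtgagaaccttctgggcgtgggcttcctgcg
SDHA: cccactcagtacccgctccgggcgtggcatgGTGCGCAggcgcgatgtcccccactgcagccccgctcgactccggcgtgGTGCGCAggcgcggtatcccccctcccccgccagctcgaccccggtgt
SDHB: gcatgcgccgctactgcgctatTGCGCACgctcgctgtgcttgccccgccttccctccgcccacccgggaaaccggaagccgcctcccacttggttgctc
UQCR11: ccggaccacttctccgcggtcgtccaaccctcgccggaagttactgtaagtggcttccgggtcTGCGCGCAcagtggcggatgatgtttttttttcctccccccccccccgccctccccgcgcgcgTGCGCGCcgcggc
Positions count back from -1, the base before the start. The core of NDUFA8 began at -61 and that of SDHB at -178, and neither overlapped an NRF-1 string. The core of NDUFA12, at -117, and the SDHA cores shown, at -119 and -70, did overlap one, as did another SDHA core at -21, past the end of the stretch. UQCR11 had 2 cores that overlap each other, at -87 and -86, and another at -24. Each promoter lay under a peak in both lists, whether the peak was narrower or wider in cadmium.

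The other strings were found in a higher, a lower or a similar share of the members than of all promoters. The NRF-1 string was in 22 members (31.9%), beside 11.6% of all promoters and 14.8% of those of genes with a peak in both lists. The ETS string CCGGAAG, to which GABP binds, was in 21 (30.4%, beside 14.7% and 19.2%). The YY1 string AAGATGGC was in 12 (17.4%, beside 4.16% and 5.37%), with 10 of its 12 occurrences after the start. In the 250 bases before the start alone it was in 1.45% of the members, beside 1.35% and 1.7%, so the higher share was not seen there. The cyclic AMP response element TGACGTCA was in 5 (7.25%, beside 2.76% and 3.33%), and the estrogen-related receptor string CAAGGTCA was in 3, SDHD, COX8A and ATP5MG (4.35%, beside 0.862% and 0.57%).

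The Sp1 string GGGCGGG was in 20 members (29%), beside 47.5% of all promoters and 57.2% of those with a peak in both lists. The AP-1 strings TGACTCA and TGAGTCA were in 0 of 69 (3.55% and 3.11%), and the forkhead strings were in 4 (5.8%, beside 9.44% and 6.52%), NDUFA9, NDUFS4, NDUFS6 and UQCRC2. A forkhead string was NTAAANA with A or G as its first base and C or T as its sixth. The NF-Y string CCAAT was in 23 (33.3%, beside 36.6% and 36.4%) and the E-box CACGTG in 7 (10.1%, beside 8.85% and 9.88%). The NF-Y share was thus slightly lower, and the E-box share slightly higher, than among all promoters. A match is a run of letters and not a measured site, and a promoter without a match lacks only those letters in this window.

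**Figure D5:**
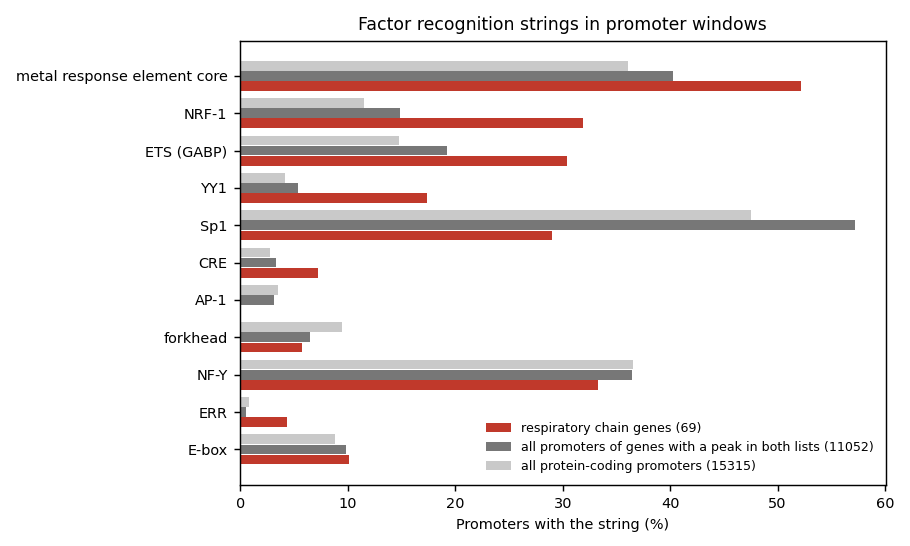
Share of promoter windows of 300 bases (x axis, %) that hold each recognition string on either strand, for 69 respiratory chain genes (red), 11052 genes with an MTF-1 peak in both lists (dark grey) and all 15315 promoters (light grey). The metal response element core, NRF-1, ETS and YY1 strings were in 52.2%, 31.9%, 30.4% and 17.4% of the respiratory chain promoters, and the AP-1 strings were in 0. The YY1 share falls to 1.45% without the 50 bases after the start.

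Genes for factors that build or control the chain were scored in the same way. The first list held 61 genes, mostly assembly factors, which insert cofactors or join subunits, together with NDUFAB1 (a complex I subunit), ATP5IF1 (an inhibitor of ATP synthase) and CYCS (cytochrome c). Of these, 60 (98.4%, beside 70.2% of all protein-coding genes) had a start-site peak in both lists. DMAC1, an assembly factor of complex I, had none. The cadmium peak was narrower at 36 (60%, beside 62.2% of all), equal at 4 (6.67%, beside 12.2%) and wider at 20 (33.3%, beside 25.5%). The median log2 ratio was -0.32, beside -0.22 over all genes. The 6 assembly factors of complex III had 5 narrower peaks (83.3%) and 1 wider. Among them were UQCC1 (29599 bp in control, 7399 bp in cadmium) and UQCC2 (6399 and 1599 bp). Their median log2 ratio of -1.15 was the lowest of any complex in this list and rests on these 6 genes. The 20 genes listed for complex I with a peak in both lists had 9 narrower (45%) and 10 wider (50%) peaks. They ran from FOXRED1 (12199 bp in control, 1399 bp in cadmium, log2 ratio -3.12) to NDUFAF4 (999 and 2399 bp, log2 ratio 1.26). COX10, which turns heme b into heme O on the way to the heme A of complex IV, had the only unique start-site peak of the list, in cadmium. It was 1 of 75 cadmium start-site peaks, beside 5.12% unique over all genes. Of the 75 control start-site peaks 0 were unique, beside 10.6%.

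All 16 regulators of mitochondrial gene expression had a start-site peak in both lists, beside 70.2% of all protein-coding genes. The cadmium peak was narrower at 11 (68.8%, beside 62.2% of all), equal at 4 (25%, beside 12.2%) and wider at 1 (6.25%, beside 25.5%). The median log2 ratio was -0.16, beside -0.22 over all genes. The gene NRF1 had 2599 bp in control and 1999 bp in cadmium, GABPA had 2599 and 2399 bp, and TFAM, which packages mitochondrial DNA, had 2399 and 1999 bp. The GABPA peak of each list is the same peak as that of the member ATP5PF. ESRRA, an estrogen-related receptor, had 9199 bp in both lists, and PPARGC1A, a coactivator of these factors, had 2999 and 2599 bp. POLRMT, PPARGC1B and PPRC1 each had 1 start-site peak unique to control beside a shared peak. These were 3 of the 24 control start-site peaks of the regulators, beside 10.6% unique over all protein-coding genes. The comparison families gave median log2 ratios of -0.42 for cytosolic ribosomal proteins, -0.26 for mitochondrial ribosomal proteins and -0.18 for proteasome subunits.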

How the data were processed

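MTF-1 was profiled by CUT&RUN in 4 libraries, 2 of control cells and 2 of cadmium cells. The methods state that after adaptor trimming the authors mapped reads to hg38 (Bowtie2), combined both libraries of a condition (SAMtools 1.8) and ran Epic2 with its defaults on the combined reads; the submitters' processing notes name the peak caller as SICER 0.0.50. The authors deposited 1 peak list per condition, and per the file the values are positions in base pairs, with a last column that is 5 in every line and was not used. The starts in the files count from 0 and are printed with 1 added. No depth, height, score or replicate value could be used.

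Transcript starts and gene types came from GENCODE release 44 on the same build, and promoters came from the RefSeq promoter table (GRCh38.p14), taking the entry closest to the canonical start. The members not matched there were ATP5F1B, ATP5F1D, ATP5MC3, ATP5MF, ATP5MF-PTCD1, ATP5MGL, COX4I2, COX6C, COX7A1, NDUFA4, NDUFA4L2, NDUFB5, NDUFB9, NDUFC2, NDUFS5, SDHC, UQCRB and UQCRHL, beside 1 gene whose own values are not reported here. Peaks were assigned to every gene with a start within 1 kb, and a peak with at least 1 base shared with the other list was called shared. The deposited lists allow no test between conditions, so counts and medians are given beside those over all protein-coding genes. Comparisons across families and promoters are likewise descriptions. The self-test on simulated peaks recovered 200 of 200 planted genes. Python 3.11.15, numpy 2.4.6 and matplotlib 3.10.9 were used.

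The members, gene lists and strings were chosen with earlier results of these data known. The named genes are the members outside the class with a peak in both lists, those with the widest and narrowest control peak and the largest narrowing and widening in each complex, core subunits, isoform pairs, and members with a shared or unique peak. NDUFB7, NDUFA13, NDUFA8, NDUFS5, NDUFB10, ATP5F1D's neighbours, the head-to-head pairs, the genes whose promoters are printed and the examples from the lists of assembly and related factors and regulators were picked after their values were seen. The ribosomal protein family was taken by symbol, leaving out the S6 kinases that share its prefix.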

Additional observations from a re-analysis of the deposited data

How the results depend on the processing

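The number of members with a peak in both lists ran from 67 to 81 over the settings tried, the median log2 width ratio ran from -0.32 to -0.12, and stayed below 0. Over all pairs of a result and a setting, 117 stayed close to the value reported and 28 moved. Control peaks unique to control numbered 1 within 500 bp of a start, where the peak covers the start, with the canonical start only, with protein-coding transcripts only, with peaks of at least 400 bp and with peaks of at least 1000 bp. Cadmium peaks unique to cadmium numbered 0 under these settings other than the 400 bp minimum. Within 3 kb, 3 members had a peak in control alone, 1 had a peak in cadmium alone and 3 had none, with 5 unique control and 3 unique cadmium peaks. With peaks of at least 1000 bp these classes held 6, 3 and 10 members. With the peak centre within 1 kb they held 2, 8 and 11. There 69 members had a peak in control and 75 in cadmium, the opposite order to 82 and 81, and the cause was not tested. A peak in both lists was found within 3 kb at 92% of members, beside 73.5% of all protein-coding genes. With peaks of at least 1000 bp the shares were 78.4% and 61%. For the other classes, the unique peaks and the peak centre, no share over all genes was computed at these settings. Counting covered bases within 1 kb of the starts gave 16 equal members and a median log2 ratio of -0.12, beside -0.08 for all genes, since bases farther away no longer count. When a shared peak had to be covered over at least 50% of its length, 17 control and 3 cadmium peaks were unique, with no share over all genes computed. With 250 bases before the start only, the YY1 and estrogen-related receptor strings were each in 1.45% of members, beside 1.35% and 0.757% of all promoters and 1.7% and 0.498% of those with a peak in both lists, so that YY1 fell below the last of these, since most of these strings lie after the start. No paired analysis was possible because the replicates were merged before peaks were called, and leaving out a library was not possible for the same reason.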

Other observations

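Copies of the respiratory chain genes elsewhere in the genome mostly lacked peaks. GENCODE lists 182 processed pseudogenes named after members, of 47 parent genes. A peak within 1 kb of their start was found in both lists for 12, in control only for 5 and in cadmium only for 3, and 162 had none. The shares were 9.34% in control and 8.24% in cadmium, beside 7.67% and 5.81% of all 10514 processed pseudogenes. Among those with a peak in both lists were COX6CP7 (4799 bp in control, 2599 bp in cadmium) and ATP5MGP3 (2199 and 799 bp).

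Peaks within the members' genes but beyond 1 kb of any start were counted as well. There were 36 such peaks in control, in 22 genes, and 11 of them (30.6%) had no counterpart in cadmium. Over all protein-coding genes the share was 33.3%. In cadmium there were 27 in 19 genes, and 1 (3.7%, beside 17.6% over all genes) was unique. Of the 11 unique control peaks, 3 lay in the read-through gene NDUFC2-KCTD14, with widths of 4799, 3199 and 599 bp.

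The mitochondrial genome, which encodes the remaining subunits of complexes I, III, IV and V, was covered in each list by 1 peak of 16599 bp over all 13 of its coding genes, which is the whole chromosome of 16569 bp rounded up to a bin. These data hold no value that tells reads of mitochondrial DNA from MTF-1 signal there.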
